A study of Mus musculus with 12 samples.

Results

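The integrin chains described here are 10 cell adhesion genes of mouse microglia, the 5 alpha chains *Itgal*, *Itga4*, *Itga5*, *Itga6* and *Itgav* and the 5 beta chains *Itgb1*, *Itgb2*, *Itgb3*, *Itgb5* and *Itgb7*. They were chosen by name as integrins other than *Itgam* and *Itgax*, and each was found under 1 gene identifier among the 48623 genes of the table. Of the 10 genes, 9 passed the expression filter, a mean log2(TPM + 1) above 1.5, and were tested with the other genes that passed it, 11204 in all. *Itgb7* did not pass. TPM is a transcript level corrected for transcript length and scaled to the same total in every library.

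The study set primary microglia of homozygous *Trem2* R47H knock-in mice (KI) against wild-type (WT) microglia, both on the C57BL/6J background, to ask how *Trem2* bears on the response to the anti-inflammatory cytokine IL-4. The cells came from the cortex and hippocampus of newborn pups, grew as mixed glia for about 3 weeks and were separated from the astrocyte layer by mild trypsinization. Every culture is represented by an untreated library and by one from cells given 20 ng/ml IL-4 for 48 h. The WT cultures numbered 3, named T13, T33 and T43, and so did the KI cultures, named T15, T22 and T32, which makes 12 libraries in 4 groups of 3. The study's methods describe pooled litters for WT preparations and pups of the knock-in strain grown separately, while elsewhere its text speaks of WT littermates for the sequencing, and the labels do not say which holds for these cultures. The labels do not explain the culture numbers either. Most p-values below come from a fit that takes the 12 libraries as independent, although each culture gave an untreated and an IL-4 library. They measure the spread between libraries of a group, which may be partly technical, and not the spread between cultures.

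Integrins are receptors made of 1 alpha and 1 beta chain that hold cells to the extracellular matrix and to other cells. The alpha chain largely sets the ligand, and the tail of the beta chain binds talin and kindlin, which switch the receptor on and tie it to actin. Leukocytes, microglia among them, use the beta chain encoded by *Itgb2* with *Itgal*, *Itgam* or *Itgax*, and macrophages use the chains of *Itgav* with *Itgb3* or *Itgb5* to bind vitronectin and to take up dying cells.

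The sites where the receptor tails are controlled are shown for the chains on which most of the results turn, to set their tails side by side. Each line gives coding bases of the GRCm38 transcript (GENCODE M21), with the gene, its span from the first to the last base, strand and exons. In the alpha chains the capitals mark the 5 codons of the conserved motif just inside the membrane, which pairs with the beta chain, and in both lines the bases are joined across the last coding junction.

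Itgal (chr7:127330237-127333475, + strand, exons 30 and 31): aaggttGGCTTCTTCAAACGGaacctg
Itga6 (chr2:71849504-71853557, + strand, exons 24 and 25): aagtgtGGCTTCTTCAAGAGAaataag

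In the beta chains the capitals mark the 4 codons of the first talin-binding motif of the tail, and the bases of *Itgb2* are likewise joined across a junction.

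Itgb1 (chr8:128732023-128732046, + strand, exon 16): ggtgaaAATCCTATTTACaagagt
Itgb2 (chr10:77564802-77565198, + strand, exons 15 and 16): aatgacAACCCCCTCTTCaagagt
Itgb3 (chr11:104667080-104667103, + strand, exon 15): gcaaacAACCCGCTGTATaaagag
Itgb5 (chr16:33948657-33948680, + strand, exon 15): gcctcaAACCCCCTGTACagaaag

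The last codon of the motif is a tyrosine codon, TAC or TAT, in *Itgb1*, *Itgb3* and *Itgb5*, and the phenylalanine codon TTC in *Itgb2*. The genes are dispersed. On chromosome 2 lie *Itga6* (71745616 to 71858416), *Itga4* (79255426 to 79333123) and *Itgav* (83724397 to 83806916), and on chromosome 15 *Itgb7* and *Itga5*. *Itgal* (chromosome 7, 127296260 to 127335138) is the only one of the 10 on the chromosome that also carries *Itgam* and *Itgax*.

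The table keeps no read counts, so the depth behind a value is unknown, and between 20750 and 23945 genes were above 0 per library. *Trem2*, the targeted gene, was at 1190.4 to 1886 TPM in the 6 WT libraries and at 325 to 769.9 TPM in the 6 KI libraries, without overlap (log2 difference -1.43, SE 0.19, limma adjusted p = 0.00763, and 0.108 without T33 and 0.0781 without T43). The summed level of 16 microglial markers was lower in KI, at 11114 to 20772 TPM untreated against 24012 to 25698 TPM in WT, and 19671 to 25544 TPM with IL-4 against 28728 to 37676 TPM, and 4 of the 15 markers tested were called lower in KI. The summed level of 11 astrocyte markers ran from 221 to 4803 TPM in untreated KI and from 167 to 693 TPM in untreated WT, and from 613 to 3674 TPM against 180.4 to 619.7 TPM with IL-4. The summed level of 11 mural and fibroblast markers was 1141 to 1446 TPM in untreated KI and 152 to 351 TPM in untreated WT, and 741 to 1299 TPM against 248 to 657 TPM with IL-4. Lymphocyte markers were all under 1 TPM in every library, with *Cd8a*, *Cd79a* and *Ncr1* at 0. In bulk RNA, fewer cells of a type and less RNA per cell cannot be told apart. From cell counts the study reported no substantial shift between microglia and other cells in WT against homozygous KI cultures, untreated or with IL-4. Whether those counts were made on these cultures is not given.

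Of the 5 beta chains, 3 stood at the top of the family. In untreated WT microglia *Itgb5* had the highest mean level, 612 ± 63.9 TPM (SD, n = 3), above *Itgb2* at 324 ± 1.15 TPM and *Itgb1* at 179 ± 10.7 TPM, and none of these 3 ranges overlapped. *Itga6* (101 ± 29.5 TPM), *Itga5* (67.7 ± 36.2 TPM) and *Itgav* (64.1 ± 9.38 TPM) followed, each overlapping the next in range. *Itgal* came below them at 26.1 ± 4.62 TPM, and *Itgb3* (4.88 ± 1.85 TPM) and *Itga4* (3.86 ± 2.73 TPM) lay lower still and overlapped each other, with *Itgb7* below them at 0 in all but 1 untreated WT library. In untreated KI microglia the order of the first 3 was *Itgb5*, *Itgb1* and *Itgb2*, the last of these at 205 ± 49.4 TPM against 251 ± 23.3 TPM for *Itgb1*, and those 2 ranges overlapped. *Itgb5* was the highest of the 10 in all 4 groups.

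**Figure D1:**
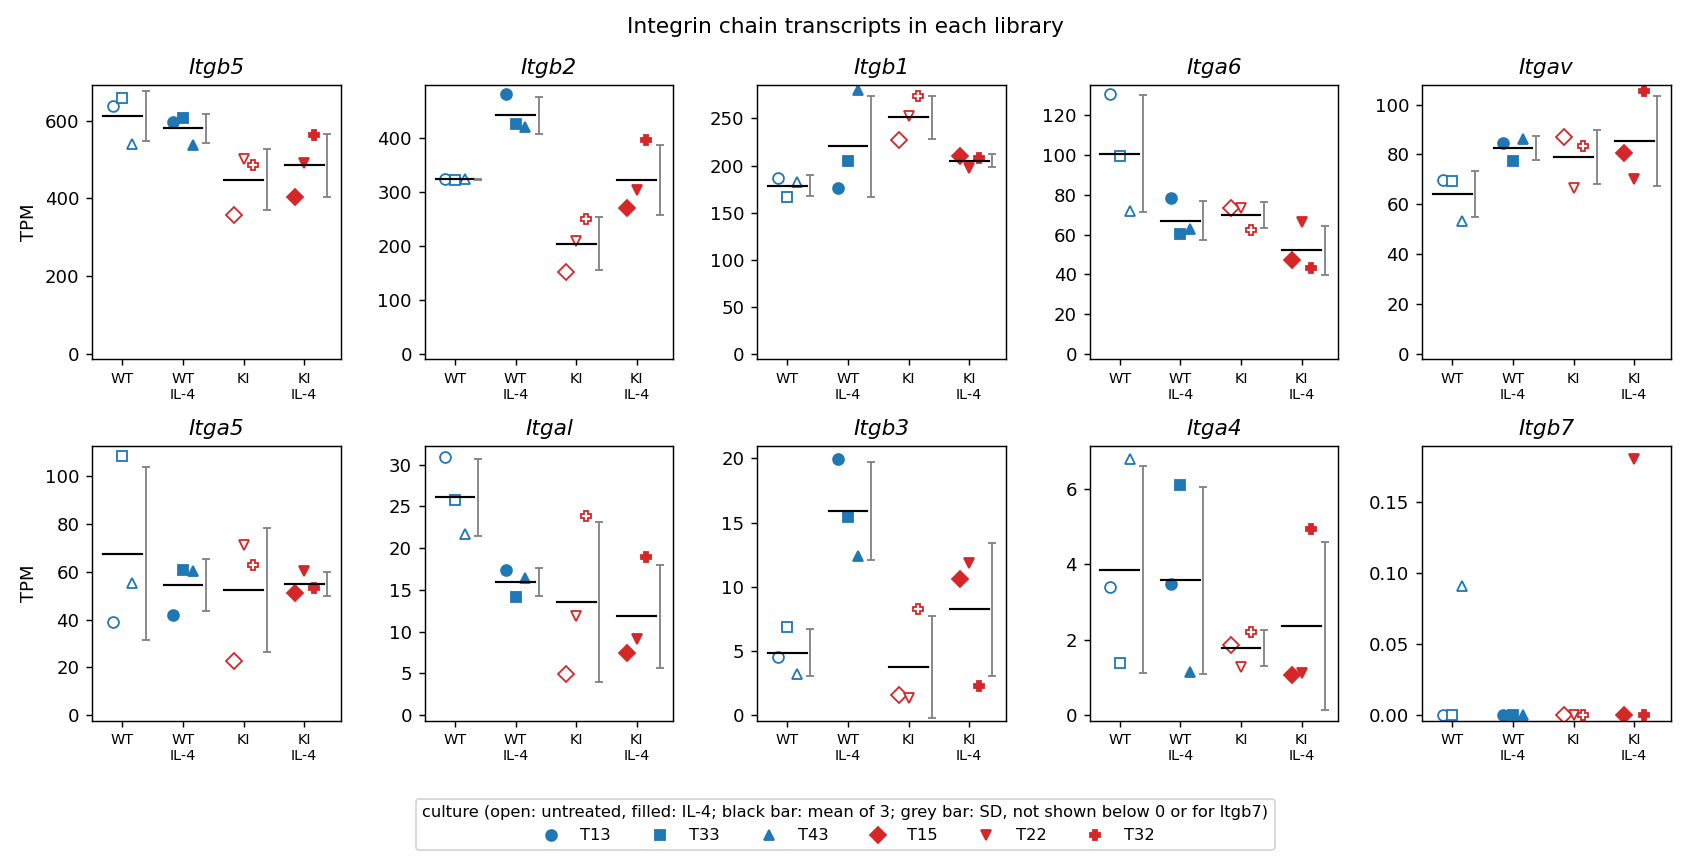
Transcript level of each chain in TPM (linear axes, a scale for each gene) in the 3 libraries of each of the 4 groups, with the group mean (black bar) and SD (grey bar); symbols mark the culture, open for untreated and filled for IL-4. The 3 KI points of *Itgb2* lie below the 3 WT points both untreated (153 to 251 against 323 to 325 TPM) and with IL-4 (271 to 396 against 420.5 to 483 TPM).

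As shares of all integrin beta chain transcripts, *Itgb5* made up 54.5% ± 2.91 (SD, n = 3) in untreated WT and 48.9% ± 2.51 in untreated KI microglia. *Itgb2* made up 29.0% ± 1.69 and 22.2% ± 2.14, in the same order of groups. *Itgb1* made up 14.4% to 17.4% in the 3 untreated WT libraries and 26.2% to 30.2% in the 3 untreated KI libraries. With IL-4 the *Itgb2* share was 35.1% ± 2.33 in WT and 31.3% ± 2.19 in KI. The *Itgb5* share was then 46.0% ± 2.72 in WT and 47.1% ± 2.19 in KI, the other way round from untreated, and the *Itgb1* shares overlapped at 13.8% to 22.4% in WT and 17.8% to 23.2% in KI. The mix of beta chains in untreated KI microglia held a smaller share of the leukocyte chain and a larger share of the widely expressed *Itgb1*, with no overlap between the 3 WT and the 3 KI libraries for either, and these shares were not tested. Among alpha chains, *Itgav* took 15.7% ± 0.81 in untreated WT and 24.7% ± 5.97 in untreated KI, and *Itga6* 24.2% ± 3.12 and 21.9% ± 4.56. With IL-4 the *Itga6* share was 15.2% ± 0.92 in WT and 15.1% ± 3.36 in KI.

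**Figure D2:**
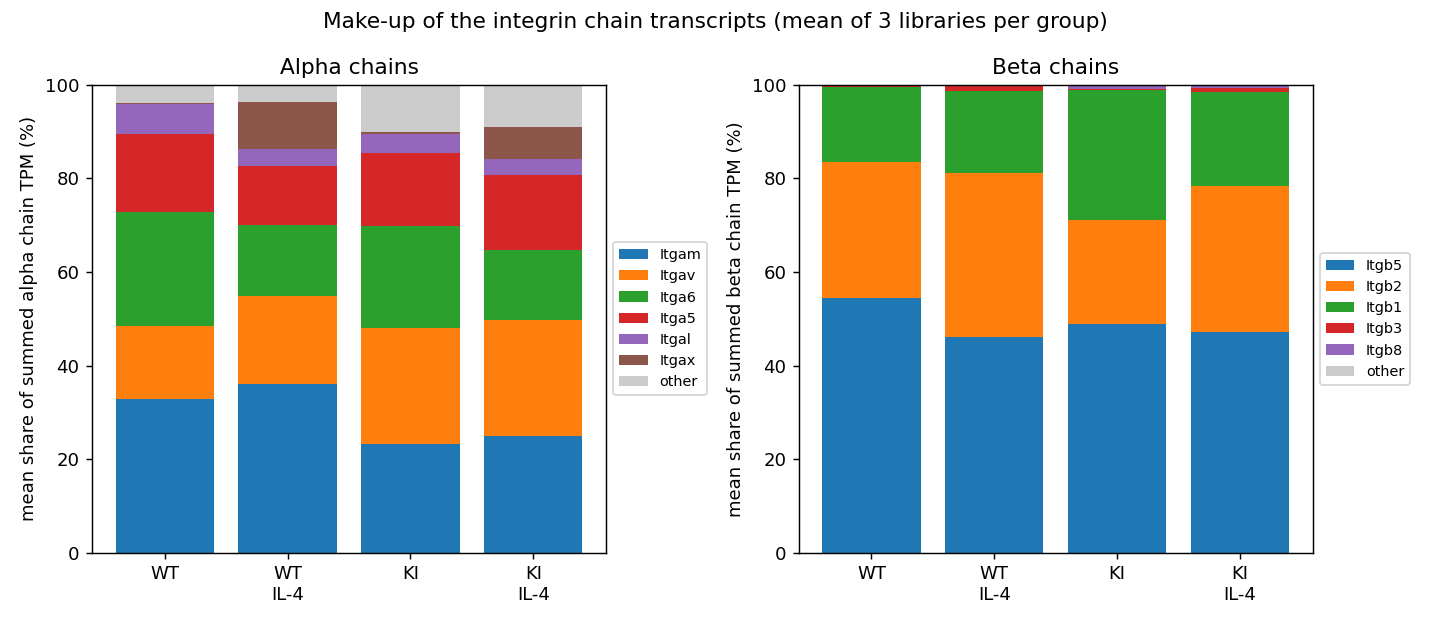
Mean share, in percent, of each chain in the summed TPM of all alpha chains (left) and all beta chains (right), as stacked bars for the 4 groups of 3 libraries. *Itgb5*, *Itgb2* and *Itgb1* fill nearly the whole beta bar in every group, and the *Itgax* band in the alpha bar is visible with IL-4 (9.97% in WT and 6.78% in KI).

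No member passed the threshold of an adjusted p of 0.05 in any of the 3 tests. For genotype 0 of the 9 members tested were called by limma, beside 185 of 11204 genes or 1.65% (3 genes without T33 and 16 without T43), and 3 members (*Itgb2*, *Itgb5* and *Itgb1*) had an unadjusted p under 0.05, beside 16.1% of all genes. For IL-4 0 of 9 were called, beside 100 genes or 0.893%, and 3 (*Itgb2*, *Itgb3* and *Itga6*) had an unadjusted p under 0.05, beside 7.27%. For the interaction, which asks whether the IL-4 difference depended on genotype, 0 of 9 were called beside 0.0% of all genes, and 1 (*Itgb1*) had an unadjusted p under 0.05, beside 3.19%. The median genotype difference (KI minus WT, averaged over treatment) of the 9 members was -0.43 on the log2 scale, with 7 members below 0, while the median of all genes tested was 0.13. That second median moved to -0.08 with quantile normalization and 0.02 with median-ratio scaling, and the same 7 members stayed below it under all 3 scalings. The calls over all genes, 145 higher and 40 lower in KI as deposited, were 84 and 56 with quantile normalization and 130 and 62 with median-ratio scaling. The median IL-4 difference was 0.01 in the members and 0.04 in all genes.

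**Figure D3:**
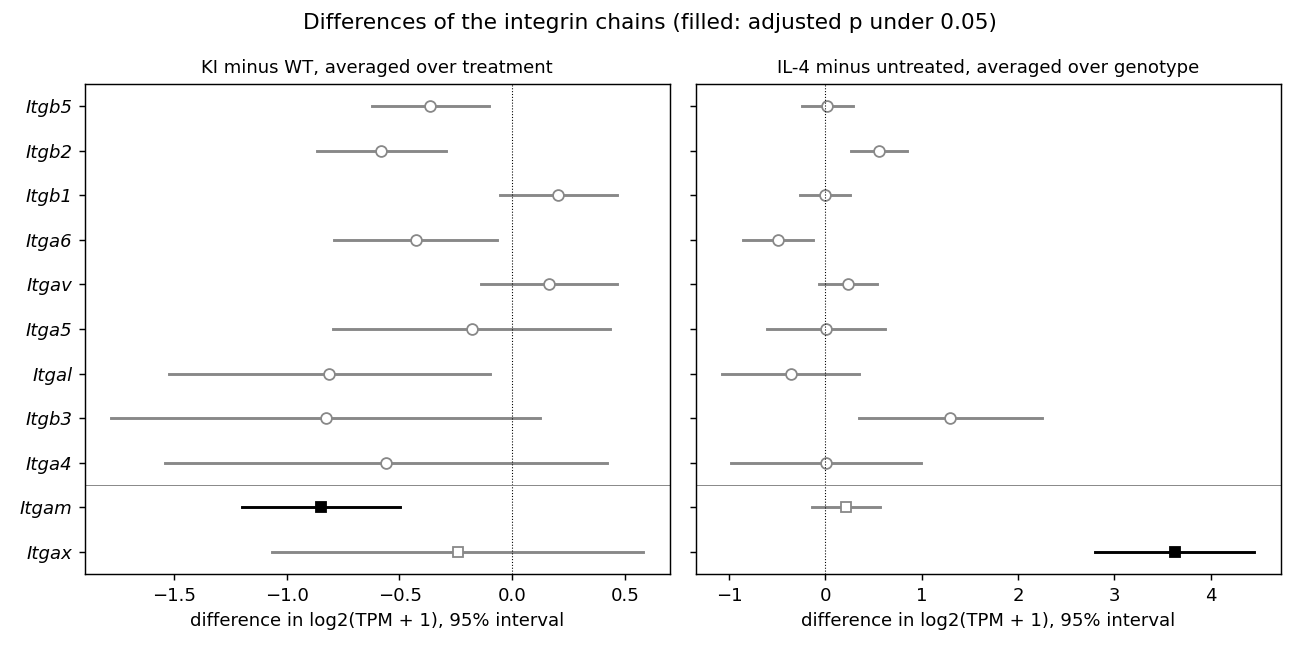
Log2 difference with its 95% interval for KI minus WT (left) and IL-4 minus untreated (right), from the limma fit on log2(TPM + 1), for the 9 members tested (circles) and, under the line, *Itgam* and *Itgax* (squares); filled black symbols passed an adjusted p of 0.05. The circles are all open, *Itgb2* lies at -0.58 for genotype and 0.56 for IL-4, and the filled squares are *Itgam* for genotype and *Itgax* for IL-4.

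Of the leukocyte pair, *Itgb2*, the shared beta chain of the leukocyte integrins, had the smallest p-values of the 9 members tested in both main comparisons. Untreated WT libraries held 325, 323 and 325 TPM in T13, T33 and T43, and the same cultures held 483, 427 and 420.5 TPM with IL-4. Untreated KI libraries held 153, 209.8 and 251 TPM in T15, T22 and T32, and 271, 304 and 396 TPM with IL-4. Every KI library lay below every WT library of the same treatment, and IL-4 libraries were above their untreated partners in 6 of 6 cultures, by 0.37 to 0.82 on the log2 scale. The KI minus WT difference was -0.58 (SE 0.13, limma adjusted p = 0.0791), and the IL-4 difference was 0.56 (SE 0.13, limma adjusted p = 0.182).

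Neither *Itgb2* comparison was called in the main fit, and for both the call depended on the fit. The genotype difference was called without culture T32 (-0.74, limma adjusted p = 0.0417) and with a test of the averaged difference alone (limma adjusted p = 0.0258, a test that called 5.13% of all genes), within a range of 0.0258 to 0.888 over 16 alternatives. The highest of these came from the fit with the microglial marker score as a covariate, where the difference was -0.41. The IL-4 difference was called in the paired fit, with culture as a fixed replicate block (SE 0.08, limma adjusted p = 0.00774, a fit that called 2.14% of all genes), and with an astrocyte marker score as a covariate (limma adjusted p = 0.0397), within a range of 0.00774 to 0.638 over 16 alternatives. Microglial markers were lower in KI in the same libraries, and their part in the *Itgb2* difference was not tested beyond that covariate.

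*Itgal*, the alpha chain that pairs with *Itgb2* to bind ICAM ligands, did not follow its partner under IL-4. Its untreated levels were 30.9, 25.7 and 21.7 TPM in the WT cultures T13, T33 and T43, and 4.93, 11.9 and 23.8 TPM in the KI cultures T15, T22 and T32. With IL-4 they were 17.4, 14.2 and 16.4 TPM in WT and 7.44, 9.13 and 18.9 TPM in KI. The 3 KI cultures were widely spread, and T32 lay within the WT range untreated and above it with IL-4, so the groups overlapped in both treatments. The KI minus WT difference was -0.81 (SE 0.33, limma adjusted p = 0.346), and it was -0.42 without T15 (limma adjusted p = 0.686) and -1.25 without T32 (limma adjusted p = 0.0871). It was -0.49 with the astrocyte score and -0.37 with the microglial score as a covariate (limma adjusted p = 0.747 and 0.984). IL-4 libraries were lower in 5 of 6 cultures, with T15 the other way, and the averaged difference was -0.36 (SE 0.33, limma adjusted p = 0.977).

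*Itgb5*, which pairs with *Itgav* as a vitronectin receptor, had a lower mean level in KI in both treatments, and the groups were apart only in the untreated cultures. It stood at 639, 658 and 539 TPM in untreated WT and 358, 501 and 485 TPM in untreated KI libraries, with no overlap. With IL-4 the values were 595, 606 and 539 TPM in WT and 403, 490.4 and 564 TPM in KI, where T32 lay within the WT range. The KI minus WT difference was -0.36 (SE 0.12, limma adjusted p = 0.233), and the IL-4 difference was 0.02 (SE 0.12, limma adjusted p = 0.99986). The genotype difference was -0.22 without T15 (limma adjusted p = 0.495) and -0.45 without T32 (limma adjusted p = 0.179), and -0.23 with the astrocyte and -0.22 with the microglial score as a covariate (limma adjusted p = 0.632 and 0.959).

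*Itgb3*, the other classical partner of *Itgav*, was low untreated and had the largest IL-4 difference of the 9 members tested. Untreated WT libraries were at 4.56, 6.87 and 3.22 TPM, and untreated KI libraries at 1.57, 1.32 and 8.31 TPM. With IL-4 it was at 20.0, 15.4 and 12.4 TPM in WT and 10.6, 11.8 and 2.30 TPM in KI, so the KI values all lay below the WT values, by a narrow margin in T22. IL-4 libraries were higher in 5 of 6 cultures, by 1.06 to 2.47 on the log2 scale and T32 went the other way. The averaged IL-4 difference was 1.30 (SE 0.44, limma adjusted p = 0.597), and it was called only where T32 was left out (1.93, SE 0.31, limma adjusted p = 0.0394), within a range of 0.0394 to 1.000 over 15 alternatives. The KI minus WT difference was -0.83 (SE 0.44, limma adjusted p = 0.543), and -0.35 with the microglial score as a covariate (limma adjusted p = 0.976).

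*Itgav* encodes the alpha chain common to these pairs. Its levels were 69.8, 69.3 and 53.3 TPM in untreated WT, 84.7, 77.2 and 86.3 TPM in WT with IL-4, 86.8, 66.4 and 83.3 TPM in untreated KI and 80.4, 70.3 and 105 TPM in KI with IL-4. KI and WT overlapped in both treatments, the 3 WT libraries with IL-4 lay above the 3 untreated ones, and IL-4 libraries were higher in 5 of 6 cultures. The differences were 0.16 for genotype (SE 0.14, limma adjusted p = 0.702, 95% interval -0.14 to 0.46) and 0.24 for IL-4 (SE 0.14, limma adjusted p = 0.918). The genotype difference was 0.28 without T22 (limma adjusted p = 0.415), 0.0586 without T32 (limma adjusted p = 0.696) and 0.0127 with quantile normalization (limma adjusted p = 0.941).

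*Itgb1*, the beta chain of most matrix receptors, was the one member with higher untreated values in every KI than in every WT library. Untreated WT libraries were at 187, 167 and 183 TPM and untreated KI libraries at 227, 253 and 273 TPM. With IL-4 it was at 176, 205 and 279.9 TPM in WT and 209.9, 197 and 208 TPM in KI, and the groups overlapped. IL-4 libraries were lower than their partners in all 3 KI cultures and in T13, and higher in T33 and T43. The interaction was -0.56 (SE 0.24, limma adjusted p = 0.99966), the averaged KI minus WT difference 0.20 (SE 0.12, limma adjusted p = 0.279) and the averaged IL-4 difference -0.01 (SE 0.12, limma adjusted p = 0.817). The genotype difference was 0.07 above the median of all genes as deposited and 0.22 above it with quantile normalization.

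*Itga6*, the laminin-binding partner of *Itgb1*, was lower with IL-4 in 6 of 6 cultures, by 0.15 to 0.73 on the log2 scale. Untreated WT libraries held 131, 99.6 and 71.6 TPM and those with IL-4 78.2, 60.2 and 62.8 TPM, and these ranges overlapped. In KI it was at 73.5, 73.4 and 62.3 TPM untreated and 47.4, 66.1 and 43 TPM with IL-4, and KI overlapped WT in both treatments. The IL-4 difference was -0.49 (SE 0.17, limma adjusted p = 0.617, and 0.236 with the replicate block), and the KI minus WT difference was -0.43 (SE 0.17, limma adjusted p = 0.355). The genotype difference was -0.27 without T13 (limma adjusted p = 0.765) and -0.0616 with the microglial score as a covariate (limma adjusted p = 0.992), the highest p of 16 alternatives, which began at 0.156.

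*Itga5* encodes the fibronectin receptor chain. Its levels were 39.2, 108 and 55.5 TPM in untreated WT, 42.0, 60.8 and 60.6 TPM in WT with IL-4, 22.9, 71.1 and 63.1 TPM in untreated KI and 51.2, 60.5 and 53.3 TPM in KI with IL-4. The untreated cultures differed more among themselves than the groups did, and the differences were -0.18 for genotype (SE 0.29, limma adjusted p = 0.865), turning to 0.0959 without T15 and 0.0641 without T33, and 0.01 for IL-4 (SE 0.29, limma adjusted p = 0.99986).

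*Itga4*, which binds VCAM1 and fibronectin with *Itgb1* or *Itgb7*, was near the expression limit. It ranged from 1.40 to 6.80 TPM in untreated WT, from 1.15 to 6.11 TPM in WT with IL-4, from 1.28 to 2.21 TPM in untreated KI and from 1.06 to 4.95 TPM in KI with IL-4, and all groups overlapped. Its differences were -0.56 for genotype (SE 0.46, limma adjusted p = 0.785, 95% interval -1.54 to 0.42), with -0.87 without T32, -0.37 without T22 and -0.94 with the microglial score, and 0.01 for IL-4 (SE 0.46, limma adjusted p = 0.99986). *Itgb7*, a beta chain best known from gut-homing lymphocytes, was listed at 0 in 10 of the 12 libraries, and the others were 1 untreated WT library (T43, 0.0907 TPM) and 1 KI library with IL-4 (T22, 0.18 TPM).

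Counted over the 9 members tested, 2 lay below WT in every untreated KI library (*Itgb2* and *Itgb5*, beside 4.55% of all genes) and 1 lay above (*Itgb1*, beside 13.6%). With IL-4 2 lay below without overlap (*Itgb2* and *Itgb3*, beside 5.79%) and 0 above (beside 12.7%). IL-4 libraries were higher in every culture for 1 member (*Itgb2*, beside 5.73% of all genes) and lower in every culture for 1 (*Itga6*, beside 2.51%).

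An alpha chain reaches the surface only with a beta chain, so the level of each alpha chain was set against its known partner within the library, where the scaling of the library cancels. The 8 pairs considered gave 7 ratios, since *Itgb7* was mostly at 0. The log2 ratio of *Itgal* to *Itgb2* was lower with IL-4 in 6 of 6 cultures, by 0.23 to 1.40, with a mean difference of -0.93 ± 0.41 (SD, n = 6 cultures). An exact sign permutation test, 2-sided, gave p = 0.03125, the smallest that 6 cultures allow, and 0.219 after Benjamini-Hochberg adjustment over the 7 ratios. In untreated WT there were 0.0667 to 0.0952 *Itgal* transcripts per *Itgb2* transcript, and with IL-4 0.0332 to 0.0390. In KI the ratio ran from 0.0322 to 0.0948 untreated and from 0.0275 to 0.0478 with IL-4, so the KI ranges overlapped.

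The ratio of *Itga6* to *Itgb1* was lower with IL-4 in 5 of 6 cultures, with a mean log2 difference of -0.49 ± 0.45 (SD, n = 6; exact permutation p = 0.0938, adjusted 0.263). The ratio of *Itgav* to *Itgb3* was also lower in 5 of 6, by a mean of -1.31 ± 1.91 (exact permutation p = 0.156, adjusted 0.263), with T32 the other way by 2.19 and a mean of -2.01 without it. Between genotypes, the smallest p that 3 against 3 cultures allow is 0.1, and it was reached by 2 pairs, *Itgav* to *Itgb3* (KI minus WT 1.21, exact permutation p = 0.1, adjusted 0.35) and *Itgav* to *Itgb5* (0.53, exact permutation p = 0.1, adjusted 0.35). In both pairs the culture means of the 3 KI cultures all lay above those of the 3 WT cultures. For *Itgav* to *Itgb1* the KI minus WT difference was -0.04 (exact permutation p = 0.7).

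**Figure D4:**
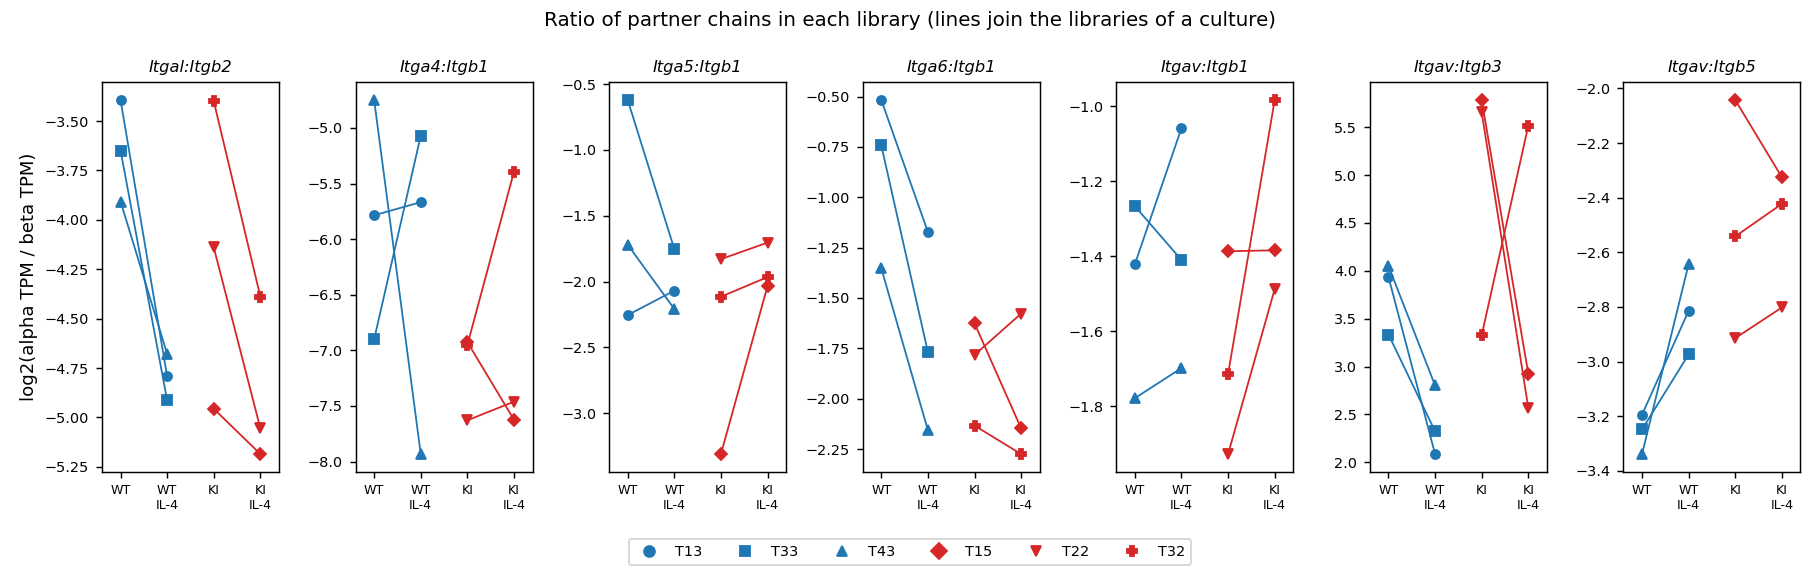
Log2 ratio of alpha to beta chain TPM for the 7 pairs, a panel and a linear axis for each pair; each symbol is a library and each line joins the untreated and the IL-4 library of a culture (WT blue, KI red). All 6 lines fall for *Itgal* to *Itgb2*, and for *Itgav* to *Itgb3* 5 fall while T32 rises.

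For the 3 members with the smallest p-values, the genes whose levels ran most alike were sought among all genes tested. The measure was Pearson's r of log2(TPM + 1) over the 12 libraries. These libraries differ in genotype, treatment and cell marker levels, and the part of these differences in each r was not tested. *Itgb2* ran closest to *Lat2* (r = 0.98), an adaptor of immune receptors, *Themis2* (r = 0.97), a signalling protein of myeloid and B cells, and *C1qb* (r = 0.97), a complement subunit that is among the microglial markers. *Itgb5* ran closest to *Nckap1l* (r = 0.95), the hematopoietic subunit of the WAVE actin-regulating complex, *Irf5* (r = 0.92) and *Fxyd5* (r = 0.92). *Itgb3* ran closest to *Cdc42se2* (r = 0.93), *Rab11fip5* (r = 0.89) and *Slc2a6* (r = 0.89). Among the members, *Itgal* and *Itgb5* (r = 0.84) and *Itgb2* and *Itgb5* (r = 0.75) ran most alike, while *Itgb1* ran against *Itgb5* (r = -0.45) and *Itga6* against *Itgav* (r = -0.50).

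Of the 16 other integrin chains, 7 passed the filter, and 1 was called in each main comparison, beside 1.65% of all genes for genotype and 0.893% for IL-4. *Itgam*, the alpha chain of the complement receptor that pairs with *Itgb2*, was lower in KI (59.2 to 85.2 TPM against 111 to 173 TPM untreated, log2 difference -0.85, SE 0.16, limma adjusted p = 0.0408), a call kept in 4 of 16 alternatives and in 0 of the 6 that leave out 1 culture (limma adjusted p 0.0124 to 0.812), with -0.33 under the microglial score. *Itgax*, another partner of *Itgb2*, rose with IL-4 (0 to 3.77 TPM untreated, 12.6 to 54.6 TPM with IL-4, log2 difference 3.63, SE 0.38, limma adjusted p = 0.00056), a call kept in 16 of 16 alternatives. The other 5 were low, with group means from 0.713 to 12.3 TPM. KI minus WT differences were 2.00 for *Itga3* (SE 0.47, limma adjusted p = 0.0922), 1.67 for *Itgb8* (SE 0.54, adjusted p = 0.231), 1.57 for *Itga7* (SE 0.51, adjusted p = 0.225), 1.38 for *Itga1* (SE 0.46, adjusted p = 0.248, and 0.90 without T43) and -1.01 for *Itga9* (SE 0.52, adjusted p = 0.485). The filter used the mean over all 12 libraries, so low chains with higher KI values could pass it through KI alone. *Itgb8* did so, with means of 0.713 TPM in untreated WT and 0.976 TPM in WT with IL-4, against 6.54 and 5.61 TPM in KI. The median genotype difference of the 7 was 1.38, beside 0.13 for all genes. Because of the filter it is not comparable with the -0.43 of the 9 members.

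Of 31 genes that activate integrins or tie them to actin, 29 were tested, and 4 were higher in KI while 0 were lower, beside 1.65% of all genes called (145 higher and 40 lower). They were *Fermt2* (kindlin-2, log2 difference 2.02, SE 0.39, limma adjusted p = 0.0407), *Tgfb1i1* (Hic-5, 1.98, SE 0.38, adjusted p = 0.0395), *Parva* (alpha-parvin, 1.91, SE 0.36, adjusted p = 0.0369) and *Actn4* (alpha-actinin-4, 0.72, SE 0.14, adjusted p = 0.0355), all proteins of focal adhesions. *Fermt2* was at 4.76 to 19.1 TPM in untreated WT and 25.4 to 70.1 TPM in untreated KI libraries. These calls were near the threshold, *Fermt2* being called in 4 of 16 alternatives, *Tgfb1i1* and *Actn4* in 5 and *Parva* in 6. None of these 4 was called with culture as a replicate block (limma adjusted p 0.0634 to 0.0783). The median difference of the 29 was 0.17, against 0.13 for all genes.

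Of 30 integrin ligands, 17 were tested, and again 4 were higher in KI and 0 lower, beside the same 1.65% of all genes. *Ccn1* (2.41, SE 0.30, limma adjusted p = 0.00597) and *Ccn2* (2.34, SE 0.32, adjusted p = 0.00674) encode matricellular proteins, *Vcam1* (1.77, SE 0.30, adjusted p = 0.0295) the cell surface ligand of *Itga4* integrins, and *Thbs1* (1.41, SE 0.26, adjusted p = 0.0369) thrombospondin-1. *Ccn1* was at 46.1 to 125 TPM in untreated WT and 412 to 558 TPM in untreated KI libraries. *Ccn1* was called in 13 of 16 alternatives, *Ccn2* in 12, *Vcam1* in 8 and *Thbs1* in 6. Of the 9 genotype calls named, *Itgam* and these 8, 0 were called by limma without T33 and with no filter, and 1 each without T43, with the microglial score and with no variance trend. They were 2 without T32, 3 without T15 or T22, 7 without T13 and 4 with the astrocyte score. Under the microglial score the differences of these 8 were all larger than in the main fit, from 0.78 (*Actn4*) to 3.32 (*Ccn1*). Their SEs were larger too, and *Itgam* was at -0.33. With culture as a replicate block, which takes account of the pairing, the 3 called were *Ccn1*, *Ccn2* and *Vcam1*, and the limma adjusted p was 0.0634 for *Actn4*, 0.0722 for *Fermt2*, 0.0756 for *Thbs1*, 0.0766 for *Parva* and *Itgam* and 0.0783 for *Tgfb1i1*. The median difference of the 17 was 1.01, against 0.13 for all genes. Of the mural and fibroblast markers 3 of the 6 tested were called higher in KI, *Acta2* (2.11), *Tagln* (1.93) and *Cnn1* (1.93). The collagen genes *Col1a1* (0.54), *Col1a2* (0.61) and *Col3a1* (0.85) were not called (limma adjusted p = 0.511, 0.588 and 0.521). Of the oligodendrocyte lineage markers 1 of the 5 tested was called higher in KI, and the summed level of all 8 was 110.3 to 455 TPM in untreated KI against 33.1 to 86.8 TPM in untreated WT, and 93.1 to 315 TPM against 34.4 to 93.1 TPM with IL-4. Of the astrocyte markers 0 of the 9 tested were called by limma, with a mean log2 difference of 1.52 (KI minus WT) over all 11 listed. With the astrocyte marker score as a covariate *Fermt2* stood at 1.34 (limma adjusted p = 0.161) and was not called. Nor were *Parva* (1.62, adjusted p = 0.154), *Tgfb1i1* (1.63, adjusted p = 0.17) and *Vcam1* (1.38, adjusted p = 0.115). *Ccn1* (2.17), *Ccn2* (1.95), *Actn4* (0.81) and *Thbs1* (1.59) were called in that fit. The part of the mural, fibroblast and oligodendrocyte lineage cells in these genes was not tested. For IL-4, 0 genes of either list were called by limma, with an unadjusted p under 0.05 in 5 of the 29 and 3 of the 17, beside 0.893% of all genes called and 7.27% at an unadjusted p under 0.05.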

How the data were processed

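RNA-seq of cultured mouse microglia was analysed, 12 libraries from 6 cultures, grouped by the genotype and treatment the labels give. Per the study's methods the authors used Trim Galore to remove adaptors, Salmon with the ENSEMBL GRCm38 annotation to quantify transcripts and tximport to sum them by gene. The authors deposited TPM values per gene and library, scaled to 1000000, so counting error is unknown and no interval for it is given. The authors tested counts with DESeq2. Here limma 3.58.1 (R 4.3.3, variance trend) was fitted to log2(TPM + 1) with genotype, IL-4 and their interaction, after a filter at a mean of 1.5. A difference on this scale understates the change of low genes. Genotype and IL-4 were each tested together with the interaction by a moderated F-test, and the printed difference is averaged over the other factor. P-values were adjusted by Benjamini-Hochberg across the 11204 genes tested, with a threshold of 0.05. Chain ratios used TPM with no pseudocount and exact permutation tests in Python 3.11.15 with numpy 2.4.6. Identifiers were named from GENCODE M21 (48350 of 48623), which also gave the coordinates and coding bases.

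The members, the lists and the rule for named genes were chosen with earlier results of these data known. The rule names all members, the other chains that passed the filter, at most 5 genes past the threshold per list and comparison, and the 3 genes most alike to each of the 3 members with the smallest p. The fit was tested on simulated data. The main limma fit took all libraries as independent and did not use the pairing. Only in the replicate block, the ratio tests and the counts over cultures were the 2 libraries of a culture treated as paired, because their names share the culture number. Their deviations from the group means correlated at 0.08 to 0.38 in the 6 cultures, and in T22 another culture correlated better. The alternatives tried were another pseudocount, other filters, scalings and tests, the replicate block, 2 marker scores as covariates and leaving out each culture. The check of the IL-4 response on a marker gene is not reported here.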

Additional observations from a re-analysis of the deposited data

How the results depend on the processing

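All values here come from the alternatives named in the processing summary, and the cause of a change was not tested. The count of genes called for genotype, 185 as reported, was 16 with no filter, 26 with no variance trend, 77 with culture as a replicate block, 68 with the astrocyte and 9 with the microglial score as covariate, 575 with the 1-coefficient test, and 3 to 192 without 1 culture, the lowest without T33. Without T43 it was 16, without T15 48 and without T32 79. The count for IL-4, 100 as reported, was 61, 50, 240 and 185 under the first 4 of these, 151 with the 1-coefficient test and 46 to 144 without 1 culture, the lowest without T43, with 56 without T13, 51 without T33 and 65 without T32. For the interaction, 0 genes as reported, 4 were called with no filter. The members called, 0 as reported, were 1 for genotype with the 1-coefficient test and 0 to 1 without 1 culture, and 1 for IL-4 with the replicate block, 1 with the astrocyte score and 0 to 1 without 1 culture. The replicate block changed no other member's call. Of the 9 genotype calls named outside the members, it left 3. A filter at 3 left *Itga4* and *Itgb3* untested. Of 417 member differences recomputed, 382 kept direction and side of the threshold, 5 became called (*Itgb2* and *Itgb3*, given above) and 30 changed sign, none of them called in either fit. For *Itga4* under IL-4 they were -0.031 with a pseudocount of 0.1, -0.0786 with quantile normalization and -0.0226 with median-ratio scaling, and -0.41 to 0.45 without 1 culture, with the interaction at -0.69 to 1.02. For *Itga5* they were 0.35 for genotype with the astrocyte score and -0.43 to 0.0959 without 1 culture, for IL-4 -0.0139, -0.0423 and -0.000418 with quantile normalization, median-ratio scaling and the microglial score and -0.22 to 0.17 without 1 culture, and for the interaction -0.0339 to 0.65. For the *Itga6* interaction they were -0.0527 with the microglial score and -0.0289 to 0.29 without 1 culture, and for the *Itgb3* interaction -1.21 to 0.77. For *Itgb1* under IL-4 they were 0.00971 and 0.00218 with the astrocyte and the microglial score and -0.0901 to 0.0838 without 1 culture. For *Itgb5* under IL-4 they were -0.0813, -0.0298 and -0.00243 with quantile normalization, median-ratio scaling and the microglial score and -0.00139 to 0.0604 without 1 culture. Of the ratios, 3 near 0 changed sign. *Itga4* to *Itgb1* under IL-4 was 0.0137 with a pseudocount, 0.143 as a median over cultures and -0.407 to 0.596 without 1 culture, *Itga5* to *Itgb1* under IL-4 was -0.232 to 0.25 without 1 culture, and *Itgav* to *Itgb1* for genotype was -0.192 to 0.0717.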
